A study of Mus musculus with 12 samples.

Results

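The comparison described here set spleen RNA of mice with the V235fs form of human TREX1 knocked in (4 samples) against spleen RNA of control mice (4 samples). These 8 samples were chosen by their titles out of the 12 of the series. The other samples, 4 from mice with the D272fs form knocked in, are used only for values given side by side. All mice had a C57BL6 background and were kept free of specific pathogens, and both knock-in alleles were conditional. The labels name no Cre line, promoter, age or sex, and they leave unsaid if the controls were wild type or had an allele that was not expressed. Each sample was hybridised to its own 2-colour Agilent array, with spleen cDNA in Cy3 and a universal reference RNA in Cy5 on every array. No dyes were swapped, so the level of a log ratio is open to dye bias. Every value below that is called a log ratio is log2 of Cy3 over Cy5, and a change is the V235fs mean minus the control mean. Unless another scaling is named, the ratios were normalised within each array. A value of 0 then means on that array's trend of Cy3 against Cy5, not equal brightness. Nothing in the labels ties the 4 samples of a group to separate animals, so p-values reflect only how these samples varied, and that variation may be technical.

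TREX1 is the main DNA exonuclease of the cytosol. It is held at the endoplasmic reticulum by its C-terminal tail and degrades DNA that would otherwise be sensed there and start an interferon response. Frameshift mutations such as V235fs truncate that tail and leave the catalytic domain in place. V235fs is known from retinal vasculopathy with cerebral leukodystrophy, a disease of small vessels. The spleen holds B cells, T cells, plasma cells, macrophages and, in the mouse, red cell precursors.

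Only part of the array could be given gene names. The files give an oligo for each of 35856 mouse probes but no gene. An oligo was named here where at least 25 bases of it matched, exactly and at 1 place, the stretch around the start of 1 gene in RefSeq's tables (build GRCm38.p6). That gave 291 probes of 289 genes, 139 of them matched over the whole oligo. The named probes therefore sit at the beginning of genes and are no random sample of the array. Probes were tested where 4 or more of the 8 arrays had Cy3 well above background, which held for 25782 probes and for 187 of the 291 named ones.

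The sequences of 3 oligos are shown because the results turn on them. The first is the probe with the largest fall. Its sequence resembles the coding sequence of mouse Trex1, the targeted gene, but no table used here could check this, so it is called by its ID and its identity is unsettled. The other 2 are the histone H4 oligos that fell, written 5′ to 3′ with the bases that matched the RefSeq start of the gene in capitals.

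M200003525: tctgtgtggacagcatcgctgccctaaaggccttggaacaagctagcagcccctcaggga

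H4c9: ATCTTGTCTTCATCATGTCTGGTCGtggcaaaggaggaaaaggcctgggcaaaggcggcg

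H4c3: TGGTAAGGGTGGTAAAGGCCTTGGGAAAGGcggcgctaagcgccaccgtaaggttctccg

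The matched bases of H4c9 lie on the minus strand at chr13:22041313-22041337 and those of H4c3 on the minus strand at chr13:23698409-23698438, both in the histone cluster of chromosome 13. The start sequences placed no oligo within the transcribed span of Trex1. The labels could therefore be checked against the targeted gene only as far as M200003525 measures it, which is unsettled. The nearest oligo that was placed, M300004718, lies at chr9:109059793-109059852 on the minus strand, just upstream of the start of Trex1 and inside the span of Atrip, which encodes the partner of the checkpoint kinase ATR, and of the Atrip-trex1 readthrough locus. Its log ratios were 0.08, 0.30, 0.30 and 0.04 in the V235fs samples (replicates 1 to 4, here and below) and 0.03, -0.12, -0.02 and -0.20 in the controls. The groups did not overlap, but the change of 0.26 (SE 0.0901) did not pass the test (adjusted p = 0.111 by limma).

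The arrays were not laid out evenly. All 4 V235fs arrays lay on 1 slide and were scanned on 1 day, while the 4 control arrays lay on 3 other slides and were scanned on 2 other days, so slide, scan day and group cannot be told apart. The 4 D272fs arrays lay on a slide of their own and were scanned on the same day as the V235fs arrays. V235fs replicate 1 was at slide position 4, where 3 of the 4 controls also were. Per array, 69.1% to 74.9% of the mouse probes had Cy3 well above background, and no spot was saturated. Median Cy3 signals were 94.3 to 102 on the V235fs arrays and 102 to 220 on the controls. The reference RNA was nominally the same on every array, yet the Cy5 channel taken alone gave 4991 of 25782 probes called between the groups (19.4%), more than the log ratio did. The change of each channel is therefore given for many results below. Where it is not given, the spleen channel should not be assumed to carry the change.

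With limma on the log ratios, 1387 of 25782 probes were called at a Benjamini-Hochberg adjusted p under 0.05 (5.38%). Of these, 676 rose (2.62%) and 711 fell (2.76%) in V235fs spleen. The median change of the rises was 0.53 and that of the falls -0.55 on the log2 scale, and 46 rises and 60 falls reached 2-fold. The groups did not overlap at 4061 of all tested probes (15.8%), and at 669 of the rises and 691 of the falls. The unnamed probes described first below, and 12 of the named falls, were picked partly for lack of overlap. Taken alone, Cy3 moved in the direction of the call at 627 of the 676 rises and 692 of the 711 falls. The calls were made on Cy3 over Cy5, so this agreement was partly built in, and its share over all tested probes was not counted. The Cy5 change was larger than the Cy3 change at 156 rises (23.1%) and 153 falls (21.5%), against 45.2% of all probes tested. The balance of rises and falls depended on the scaling. With median centring in place of loess 84 probes rose and 2779 fell, around a median of all probes of -0.18, and with Cy3 alone 2402 rose and 1605 fell.

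The number of calls also depended on single arrays and on whether the layout entered the fit. It was 3495 without V235fs replicate 1 and 71, 57 and 47 without V235fs replicates 2, 3 and 4. It was 111 without control replicate 2, 419 without control replicate 3, and 1078 and 1328 without control replicates 1 and 4. When slide entered the fit as a random block, 3 probes were called. Scan day as such a block gave 22, and slide position as a fixed block gave 2. No slide or scan day held both groups, so the random blocks could not separate slide or day from group. V235fs replicates 2 and 3 had no control at their slide position. The position fit therefore compared the groups through V235fs replicates 1 and 4 only, and it had less power. V235fs replicate 1 was the V235fs array nearest to the control mean at 421 of the 676 rises and 492 of the 711 falls. The part that slide and scan day had in the calls cannot be told apart from group, and that of position was not tested beyond the position fit.

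**Figure D1:**
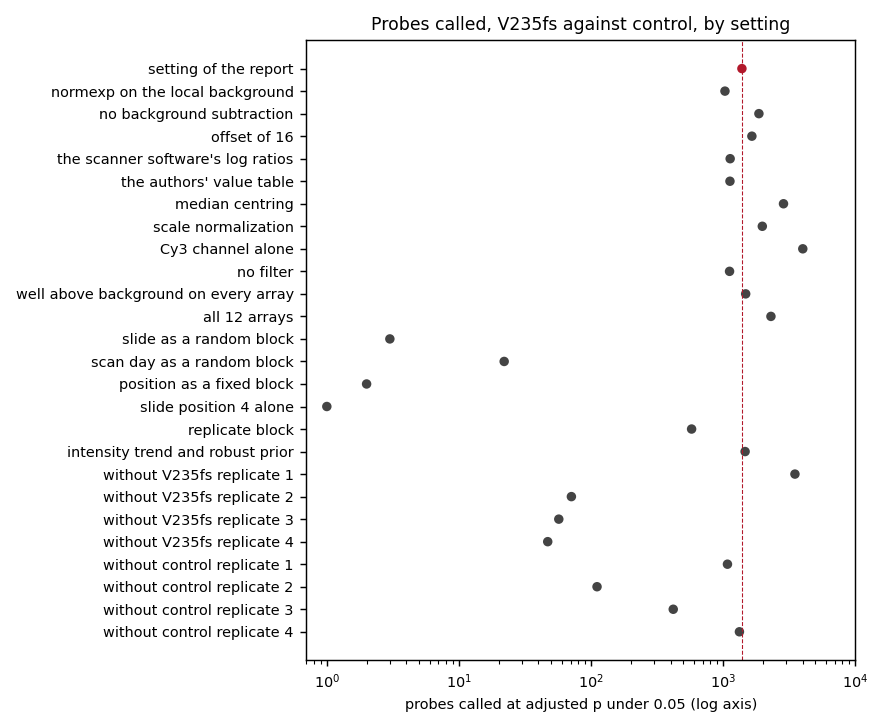
Number of probes called between V235fs and control spleen (horizontal log axis) under each setting, 1 point per setting, with the setting of the report in red at 1387. The points for the slide, scan day and position fits lie at 22 or fewer, and those without V235fs replicate 2, 3 or 4 at 71 or fewer.

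The deepest fall was at M200003525, the oligo that may be of Trex1. A mouse oligo may not measure the human form that was knocked in. The fall therefore does not show how much TREX1 RNA the knock-in spleen held. Its log ratio was -2.38, -2.30, -2.42 and -2.43 in V235fs spleen and 1.59, 0.96, 1.20 and 1.21 in the controls. The V235fs samples lay close together and far below every control. The change was -3.62 (SE 0.122, adjusted p = 4.64e-06), a 12.3-fold difference, and it came from the spleen channel: Cy3 alone changed by -3.41 and Cy5 alone by 0.01. The size depended on the background correction: it was -4.45 (21.8-fold) with an offset of 16 and -5.32 (40.0-fold) with the scanner's log ratios. With slide as a random block, which cannot separate slide from group, the adjusted p at M200003525 was 6.06e-05. The call also passed with position as a fixed block (adjusted p = 0.0123). At slide position 4 alone, with 1 V235fs and 3 control arrays, its adjusted p was 0.115. The D272fs samples had log ratios of -2.07, -2.20, -2.09 and -1.87. V235fs and D272fs differed there by -0.33 (SE 0.115), which did not pass the test (adjusted p = 0.196).

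M300001033, which has no gene name here, was also lower in every V235fs sample than in any control. Its log ratio was 0.11, 0.09, 0.14 and 0.07 in V235fs spleen and 2.62, 2.77, 3.15 and 2.40 in the controls. Cy3 was well above background there on none of the 4 V235fs arrays and on all 4 control arrays, so its level in V235fs spleen is known only to lie under a limit. It met the filter for testing only through the controls, so its p-values are a description. It was not tested when a control was left out or at slide position 4 alone. On normalised Cy3 signals the controls had a mean log2 of 8.69, at least 6.41-fold above the background limit of the V235fs arrays, 6.004, where the measured mean was 5.88. This bound holds on that scale alone. The log ratio changed by -2.63 (6.20-fold, adjusted p = 0.000152), and by -2.21 with median centring, -3.32 with an offset of 16 and -3.70 with the scanner's log ratios. Cy3 alone changed by -2.48 and Cy5 alone by -0.43. In D272fs spleen the log ratios were 0.07, 0.12, 0.67 and 0.21. This call also passed with slide as a random block (adjusted p = 0.00241), with the same limit, and with position as a fixed block (adjusted p = 0.0292).

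Rises were smaller and less even. At M200000108 the V235fs log ratios were 1.66, 2.02, 2.89 and 3.09 and the control log ratios 1.05, 0.74, 1.08 and -0.30. The groups did not overlap, though each spread widely, and the change was 1.77 (SE 0.384, adjusted p = 0.0388), with 1.69 in Cy3 alone and -0.02 in Cy5 alone. At M400014492 the log ratios were 1.89, 3.11, 2.78 and 2.96 in V235fs spleen and 0.58, 1.34, 1.20 and 1.51 in the controls. The change was 1.53 (SE 0.280, adjusted p = 0.0272), of which Cy3 alone carried 1.24 and Cy5 alone -0.24. D272fs spleen gave 0.29, 1.81, 1.14 and 1.02 at M200000108 and 2.40, 2.77, 1.87 and 1.56 at M400014492. Both calls were lost in the slide fit and in the position fit.

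**Figure D2:**
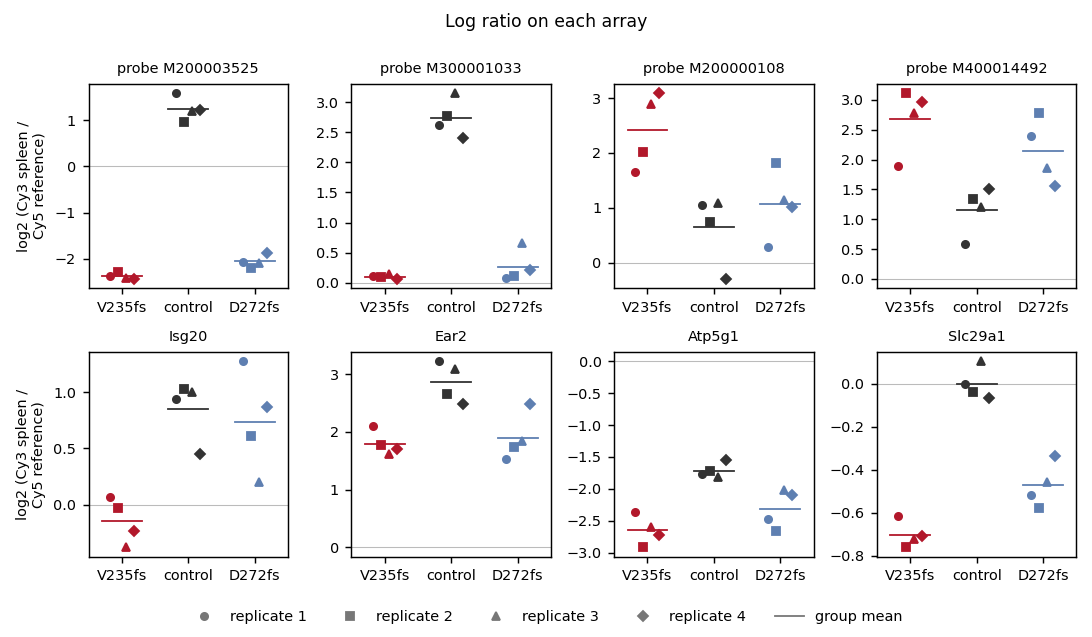
Log2 ratio of spleen over reference (vertical axis) on each array for 4 probes without a gene name and 4 named ones, by group, with 1 symbol per replicate and a line at the group mean. V235fs and control samples do not overlap in any of the 8 panels, which the rule that picked every panel but Slc29a1 required. They did not overlap at 15.8% of all tested probes. At Isg20 the D272fs samples, from 0.20 to 1.27, lie above every V235fs sample.

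Among the 187 named probes tested, 17 fell and none rose (9.09% called, against 5.38% of all probes tested). By limma at an adjusted p under 0.05, 0 named probes rose in these arrays; with no background subtraction 1 did, with all 12 arrays in the fit 4 did, and with Cy3 alone 10 did. The named probes had a median change of -0.05, against 0.00 over all tested probes, and 112 of the 187 were lower in V235fs spleen, against 12641 of 25782 overall. The 17 probes stand for 16 genes.

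Of 3 named histone H4 oligos tested, 2 fell, where 2.76% of all probes and 17 of the 187 named ones did. Histone H4 is a core protein of the nucleosome, and its replication-dependent genes are transcribed mainly while DNA is copied. H4c9 had log ratios of 0.31, -1.17, -1.26 and -1.30 in V235fs spleen and 1.04, 0.61, 0.53 and 1.33 in the controls. Replicate 1 of V235fs stood apart, close below the lowest control. The change was -1.73 (SE 0.354, adjusted p = 0.0338), with -1.31 in Cy3 alone and 0.37 in Cy5 alone. H4c3 had log ratios of 0.40, 0.08, -0.05 and -0.02 against 1.40, 0.87, 0.93 and 1.18. It fell by 0.99 on the log2 scale (SE 0.141, adjusted p = 0.0158), again without overlap.

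The third H4 oligo, H4c8, was dim, with Cy3 well above background on 1 V235fs and 3 control arrays, and changed by -0.41 (SE 0.140, adjusted p = 0.104). In addition, 3 oligos without a name shared a run of at least 20 bases with one of the named H4 oligos. All 3 fell, with log2 changes of -1.102, -1.084 and -1.098 and adjusted p-values of 0.00994, 0.0143 and 0.00997. These 3 were not followed through the slide, scan day, position or left-out settings. Because H4 genes are near-identical in their coding sequence, these oligos can bind each other's transcripts and are not independent measurements. D272fs spleen gave -0.90, -1.03, 0.46 and -0.03 for H4c9 and 0.10, 0.04, 0.86 and 0.25 for H4c3. The other histone genes with a named probe, H1f6 and H2bc1, were too dim to test.

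**Figure D3:**
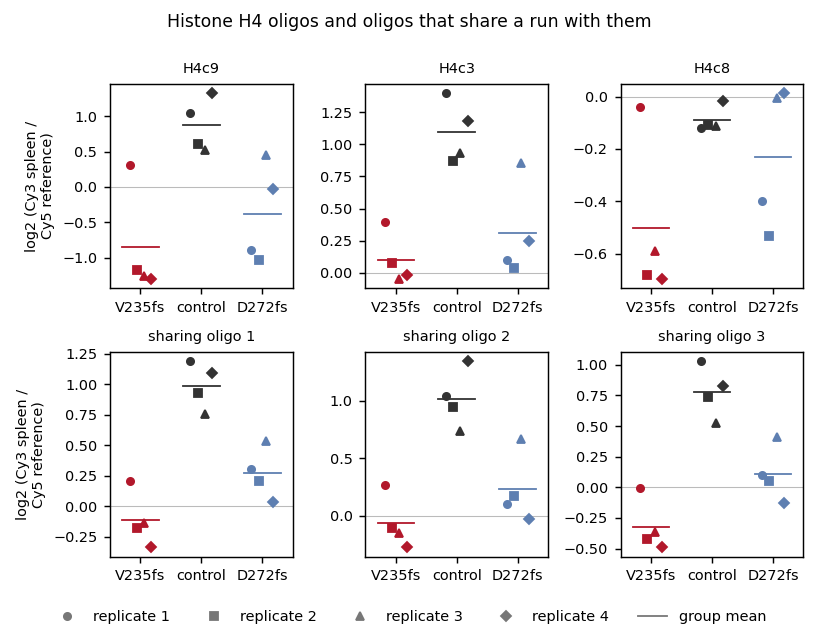
Log2 ratio of spleen over reference (vertical axis) on each array for the 3 named histone H4 oligos and the 3 unnamed oligos that share a run with them, with 1 symbol per replicate and a line at the group mean. V235fs replicate 1 is the highest of its group in every panel, and V235fs and control samples overlap only at H4c8.

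Of the 60 interferon-stimulated genes listed, 2 had a named probe that was tested. Isg20, an interferon-induced exonuclease that degrades RNA and is also abundant in germinal centre B cells, fell. Its log ratio was 0.07, -0.03, -0.38 and -0.23 in V235fs spleen and 0.94, 1.03, 0.9997 and 0.45 in the controls. Control replicate 4 was the lowest control and still lay above every V235fs sample. The change was -0.996 (SE 0.148, adjusted p = 0.0170), and nearly all of it was in the spleen channel (-0.93 in Cy3 alone, -0.04 in Cy5 alone). The matched bases lie on the plus strand at chr7:78913985-78914038. D272fs spleen had log ratios of 1.27, 0.61, 0.20 and 0.87. V235fs and D272fs differed by -0.88 (SE 0.204), which did not pass the test (adjusted p = 0.0811).

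Psmb9, an interferon-induced subunit of the immunoproteasome, had log ratios of 2.07, 2.06, 2.32 and 1.99 in V235fs spleen and 2.52, 1.90, 1.92 and 2.19 in the controls. The groups overlapped and the change was -0.02 (SE 0.143, adjusted p = 0.946). H2-Q4, a class I histocompatibility gene outside the list, had log ratios of 0.83, 1.04, 1.33 and 1.66 against 0.91, 0.92, 0.93 and 0.84, a change of 0.31 that did not pass the test (adjusted p = 0.241). The other listed interferon-stimulated genes were not measured by a named probe.

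Of the 30 genes listed for nucleic acid sensing and nucleases, only Dnase1l1 had a named probe. Dnase1l1 encodes a DNase I-like enzyme. Its log ratios were 0.00, -0.25, -0.25 and -0.10 in V235fs spleen and 0.19, 0.27, 0.29 and 0.16 in the controls, and it fell by 0.38 on the log2 scale (SE 0.0801, adjusted p = 0.0365), with -0.39 in Cy3 alone. With the scanner's log ratios its change was -0.85. Of the 7 genes listed for the SET complex, only Nme2, a nucleoside diphosphate kinase, had one. Its change of -0.94 (SE 0.289) did not pass the test (adjusted p = 0.0826). Its relative Nme3 fell by 0.31 (SE 0.0740, adjusted p = 0.0463), with -0.16 in Cy3 alone.

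Jchain, from the plasma cell list, and Ear2, which is in no list, also fell. Ear2, an eosinophil-associated ribonuclease, had log ratios of 2.096, 1.77, 1.62 and 1.70 in V235fs spleen and 3.22, 2.65, 3.09 and 2.49 in the controls. Every V235fs sample was below every control, and the change was -1.07 (SE 0.174, adjusted p = 0.0229), with -0.96 in Cy3 alone and -0.23 in Cy5 alone. With the scanner's log ratios the Ear2 change was -0.51 and did not pass the test (adjusted p = 0.182 by limma). The Ear genes are a family of close copies, so the oligo may bind several of them. Jchain, which joins antibody subunits in plasma cells, had log ratios of -0.59, -0.70, -0.52 and -0.53 against -0.24, -0.30, -0.30 and -0.26. It fell by 0.31 (SE 0.0687, adjusted p = 0.0406), where Cy3 alone changed by -0.17 and Cy5 alone by 0.21. Its change was -0.49 with an offset of 16 and -0.74 with the scanner's log ratios. In whole spleen, fewer cells of a type and less RNA per cell cannot be told apart.

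The labelled tissue could hardly be checked. Of the marker lists, that of plasma cells had 1 named gene of 10 (Jchain) and that of NK cells 1 of 14 (Klra8, well above background on 0 V235fs and 4 control arrays). Klra8 had log ratios of 0.30, 0.32, 0.31 and 0.25 in V235fs spleen and 0.23, 0.49, 0.95 and 0.40 in the controls. The markers of B cells, T cells, macrophages, neutrophils, dendritic cells and red cell precursors had no named probe. Of 34 pancreas markers only Try4, a trypsin, had a probe. Its log ratios were 0.47, 1.30, -0.23 and -0.25 in V235fs spleen and between -0.23 and -0.05 in the controls, a change of 0.49 (adjusted p = 0.335). Of 27 listed vascular genes only Vegfa, an endothelial growth factor, had a probe, and its change of -0.12 (SE 0.0687) did not pass the test (adjusted p = 0.318).

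Of 4 ribosomal protein probes tested, 1 fell, where 2.76% of all probes did. Rps13, a protein of the small subunit, had log ratios of -0.06, -1.09, -0.88 and -1.23 in V235fs spleen and 1.15, 0.32, 0.42 and 0.30 in the controls. The change was -1.36 (SE 0.274, adjusted p = 0.0332), with -1.58 in Cy3 alone and -0.38 in Cy5 alone. V235fs replicate 1 was the highest of its group, and control replicate 1 the highest control. The other 3 ribosomal probes did not pass: Rpl38 changed by -1.14 (adjusted p = 0.0804), Rps19 by -0.46 (adjusted p = 0.0688) and Rpl12 by -0.16 (adjusted p = 0.501).

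Atp5g1, a subunit of the membrane ring of mitochondrial ATP synthase, fell. Its log ratios were -2.37, -2.92, -2.60 and -2.72 in V235fs spleen and -1.77, -1.72, -1.81 and -1.55 in the controls. The change was -0.94 (SE 0.119, adjusted p = 0.0108), with -0.85 in Cy3 alone and 0.00 in Cy5 alone. Atp5o, the stalk subunit of the same enzyme and the only listed oxidative phosphorylation gene with a named probe, changed by -0.87 (SE 0.220) and did not pass (adjusted p = 0.0525). Ndufa11, a subunit of respiratory complex I outside the list, changed by -1.19 (adjusted p = 0.0510), and Hspe1, a mitochondrial chaperone, by -1.04 (adjusted p = 0.0685). At Ndufa11 Cy3 alone changed by -0.80 and Cy5 alone by 0.31, and at Hspe1 by -0.65 and 0.33. Mrpl58, a release factor of the mitochondrial ribosome, fell by 0.85 (SE 0.192, adjusted p = 0.0418), but there Cy5 alone changed by 0.51 and Cy3 alone by -0.31.

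At Rpl38 and Spcs1, picked after their values were seen, V235fs replicate 1 stood apart. Rpl38 had log ratios of -1.19, -2.92, -2.87 and -2.48 in V235fs spleen and -1.31, -1.41, -1.30 and -0.88 in the controls, so that V235fs replicate 1 lay among the controls and the other 3 far below them. Spcs1, a subunit of the signal peptidase of the endoplasmic reticulum, had log ratios of -0.51, -2.61, -2.51 and -2.01 against 0.11, -0.48, -0.58 and -0.01. Its change of -1.67 (SE 0.419) did not pass the test (adjusted p = 0.0519). At Spcs1 Cy3 alone changed by -1.07 and Cy5 alone by 0.54, and at Rpl38 by -0.63 and 0.50. D272fs spleen gave -2.11, -2.53, -0.58 and -0.43 for Spcs1 and -2.84, -2.82, -1.41 and -1.47 for Rpl38, so the D272fs samples were split 2 and 2. Rpl12 differed: its V235fs log ratios were -0.45, 0.11, -0.25 and -0.33, with replicate 1 the lowest.

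Slc29a1, an equilibrative transporter of nucleosides, had the lowest adjusted p of the 17 named falls. Its log ratios were -0.62, -0.76, -0.72 and -0.71 in V235fs spleen and 0.00, -0.04, 0.10 and -0.07 in the controls. The change was -0.70 (SE 0.0701, adjusted p = 0.00684). In the scan day fit, which cannot separate scan day from group, Slc29a1 was the only named call left (adjusted p = 0.0485). Cy3 alone, however, changed by -0.33 and Cy5 alone by 0.44, so the reference channel carried the larger part. With the scanner's log ratios the change was -1.41. D272fs spleen gave -0.52, -0.58, -0.46 and -0.34.

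Both probes of Gstp1, a glutathione S-transferase, fell, by 0.60 (SE 0.101, adjusted p = 0.0242) and 0.46 (SE 0.0836, adjusted p = 0.0269) on the log2 scale. Their matched bases overlap at chr19:4037863-4037889, so they are not independent. Cy3 alone changed by -0.15 at the first and -0.33 at the second, and Cy5 alone by 0.46 and 0.11. The probe of its neighbour Gstp2 had log ratios of 0.47, 0.67, 0.37 and 0.20 in V235fs spleen and 0.42, -0.09, -0.11 and -0.04 in the controls. The change of 0.38 at Gstp2 did not pass the test (adjusted p = 0.127).

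The other named falls were of 4 further genes. Nudt16l1, a relative of the RNA-decapping Nudix enzymes, fell by 0.79 (SE 0.142, adjusted p = 0.0269), with Cy5 alone at 0.56 and Cy3 alone at -0.22. Ube2j2, a ubiquitin-conjugating enzyme of the endoplasmic reticulum, fell by 0.57 (SE 0.116, adjusted p = 0.0337), nearly all of it in Cy3 (-0.53). Lmtk3, a membrane-bound kinase, fell by 0.52 (SE 0.122, adjusted p = 0.0445), and its V235fs log ratios were -0.04, -0.04, -0.06 and -0.06. The long noncoding RNA 1700096J18Rik fell by 0.28 (SE 0.0695, adjusted p = 0.0493).

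**Figure D4:**
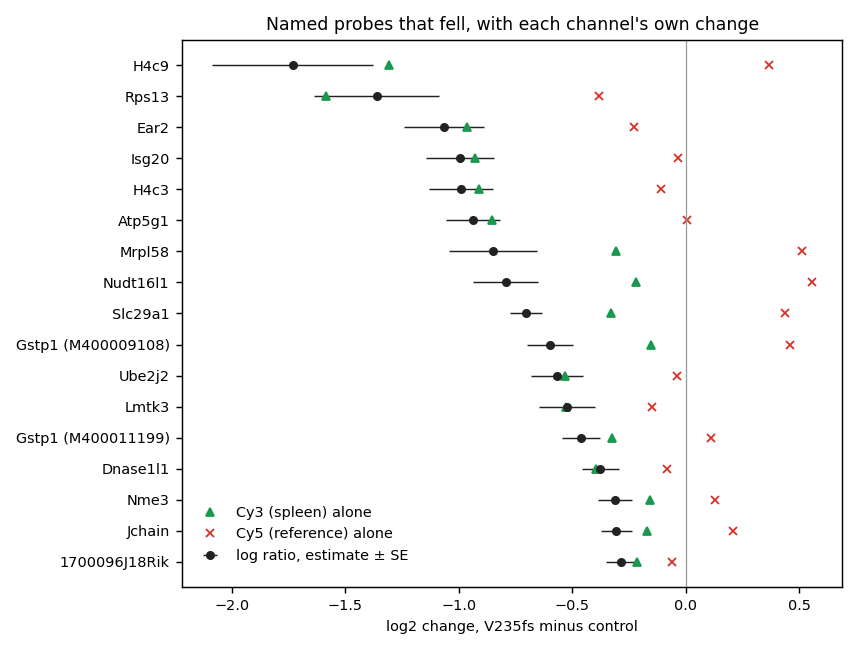
Change between V235fs and control spleen (horizontal axis, log2) of the 17 named probes that fell, as the estimate from the log ratio with its standard error (black), and as the change of Cy3 alone (green) and of Cy5 alone (red). At Mrpl58, Nudt16l1, Slc29a1, Jchain and M400009108 of Gstp1 the red cross lies farther from 0 than the green triangle, and at Isg20, Ear2 and H4c3 the green triangle lies close to the black point.

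At the upper end no named probe passed. Clca3a1, a secreted protein of the calcium-activated chloride channel regulator family, came nearest. Its log ratios were 4.99, 4.71, 4.96 and 5.001 in V235fs spleen and 4.35, 4.66, 4.60 and 4.14 in the controls, without overlap, and the change of 0.48 (SE 0.126) had an adjusted p of 0.0575. Ffar1, a receptor for free fatty acids, changed by 0.51 (adjusted p = 0.0682), of which Cy3 alone carried 0.14 and Cy5 alone -0.38. Dock2, an activator of the GTPase Rac in blood cells, had log ratios of 2.02, 3.05, 2.83 and 2.73 against 2.12, 2.40, 2.60 and 1.65, which overlap, and changed by 0.47 (adjusted p = 0.274).

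Most of these calls were lost when the layout entered the fit or when some of the samples were left out. Of 21 probes described as called (the 4 unnamed ones picked by size and the 17 named), 2 stayed called in the slide fit, 3 in the scan day fit, 2 in the position fit and 12 with the replicate number as a block. The 3 unnamed oligos that share a run with H4 oligos are not among the 21 and were not followed through these settings. With Cy3 alone 13 of the 21 stayed called. Without V235fs replicate 2, 3 or 4, 4, 4 and 3 of them stayed called, and without V235fs replicate 1 all 21 did. Without control replicates 1 to 4, 13, 5, 8 and 14 of the 20 that were still tested stayed called. M300001033 was the probe no longer tested there. The size of 9 of the 21 moved by over 1.5 times with the scanner's log ratios, and of 11 at slide position 4 alone, counted on the log2 or the fold scale. With the scanner's log ratios H4c9 changed by -2.41, H4c3 by -1.67, Lmtk3 by -1.10 and Ear2 by -0.51. In that setting 18 of the 21 stayed called, and Ear2, Nme3 and 1700096J18Rik did not. With median centring the Gstp1 probes changed by -0.98 and -0.83 and Nme3 by -0.51. With position as a fixed block H4c9 changed by -1.14 and Mrpl58 by -0.50. None of the 21 changed direction in any setting in which it was tested, the alternative scalings included.

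V235fs and D272fs spleen were compared in a fit over all 12 arrays, in which 30 of 26503 probes were called between the knock-ins (0.113%). Of the 21 probes, 0 passed this test with limma, and 9 had an unadjusted p under 0.05. Their differences ranged from -0.88 at Isg20 to 1.35 at M200000108, and the lowest adjusted p was 0.0811. The comparisons of each knock-in with control share the control arrays, and both knock-ins were scanned on the same day, which held no control. Likeness of the knock-ins therefore cannot be told apart from scan day, nor a difference between them from slide. Values of D272fs stand beside those of V235fs only as a description.

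The called probes also differed in features of the oligo and the signal that the choice of samples did not use. In the lowest quintile of probes by GC content (28.3% to 45.0% GC), 186 rose (3.04%) and 152 fell (2.49%). In the highest quintile (54.0% to 70.0% GC), 96 rose (1.90%) and 171 fell (3.39%). Calls were rare among dim probes: in the lowest quintile by Cy3 signal 21 rose and 21 fell (0.407% each), while in the highest quintile 249 rose (4.83%) and 174 fell (3.37%). Oligos that hold AATAAA, the usual polyadenylation signal, on the strand given made up 578 of the probes tested, and 16 of them rose (2.77%) and 23 fell (3.98%), against 2.62% and 2.76% of all probes tested. These counts are a description, and whether they go with sequence or with the signal was not tested.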

How the data were processed

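The deposited scanner files give, per spot, the mean intensity of Cy3 and Cy5 and the local background intensity, which per the file headers came from Feature Extraction 11.5.1.1 (Agilent). They and the authors' value table also hold a deposited log10 ratio of Cy5 over Cy3, which, per the file headers, the scanner software had already corrected for background and dye. The table lay within 0.005 of the scanner files for all 36233 features, which settled its scale and direction.

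From the mean intensities, 35973 mouse spots of 35856 probes were used. Normexp in limma 3.58.1 (R 4.3.3) removed the background, with the mean and SD of the 153 negative control spots and an offset of 50, then loess within each array with control spots at weight 0. The 77 outlier spots on the 8 arrays were dropped, and repeated spots of a probe were averaged. The sign was turned to give log2 of Cy3 over Cy5. Tested probes had Cy3 well above background on 4 or more of the 8 arrays and 2 or more values a group. limma's linear model and empirical Bayes test (6 residual and 3.21 prior degrees of freedom) compared the group means. At 35 tested probes a value was missing. Each channel alone was quantile normalised. The number of arrays limits the precision.

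The samples, gene lists and tests were chosen with earlier results of these data known. The rule for naming took the called probes with the largest change, no overlap, all arrays of the higher group above background and a Cy3 change above the Cy5 change, then up to 4 called probes of each list and, per direction, 2 unnamed ones. It left 12 named falls and no rise. The other named falls, and the uncalled genes outside the lists, were chosen after their values were seen. Naming by protein match and the planned test of Trex1 were not run, since no protein table was used here, and placement at gene starts took their place. No probe was placed at a Trex1 exon, and M200003525, which may be of Trex1, could not be checked. Lists of cell cycle, DNA damage, N-glycosylation, unfolded protein response, immediate early, and heme and iron genes had no named probe. The fit was tested on simulated data with independent noise and no slide, scan day or position effect, so that test says nothing about the layout. Alternatives covered background, normalisation, filter, samples, blocks and each array left out.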

Additional observations from a re-analysis of the deposited data

Results flagged for a closer look

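Of the groups of 4 samples, 70 were examined for an array that lay far from the other 3. The groups named below had a gap to the neighbour that took up more of the group's range than Dixon's critical value allows. Chance alone gives such a gap in about 1 of 20 groups. Among V235fs samples, replicate 1 was the high one each time: at H4c9 it had a log ratio of 0.31 where the next was -1.17, at H4c8 -0.0389 where the next was -0.59, at Nme2 -0.83 where the next was -1.68, and at Hspe1 -0.74 where the next was -1.85.

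Among the controls, replicate 1 was the high one at Rps13 (1.15, next 0.42) and Rpl12 (0.24, next -0.12), and the low one at Rps19 (-1.32, next -1.10). Control replicate 4 was the low one at Isg20 (0.45, next 0.94) and the high one at H4c8 (-0.0157, next -0.11).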

How the results depend on the processing

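The V235fs against control count of 1387 calls moved by over 1.5 times with median centring (2863), Cy3 alone (4007), all 12 arrays (2300), random blocks for slide (3) or scan day (22), position as a fixed block (2) and slide position 4 alone (1), and ranged from 47 to 3495 with 1 array left out. The replicate block gave 577 calls, 471 of them among the 1387. Same-numbered V235fs and control arrays had deviations correlated between -0.15 and 0.04, and unlike-numbered ones between -0.23 and 0.19. These few correlations showed no pairing by number but cannot exclude one. The Cy5 count of 4991 became 7688 with all 12 arrays, 13 and 215 with slide and scan day, 15 with position, 3142 with the replicate block, and 0 at position 4 alone (1086 at an unadjusted p under 0.05), and ranged from 2029 to 9089 with 1 array left out.

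The V235fs minus D272fs count of 30 was 1 with normexp on the local background, 60 with an offset of 16, 11 with the scanner's log ratios and 11 with the authors' values, 1 with median centring, 56 with scale normalization, 2783 with Cy3 alone, 7 with no filter, 1 and 165 with slide and scan day, 178 with position, 0 at position 4 alone (1933 at an unadjusted p under 0.05) and 5 with the replicate block. It ranged from 1 to 425 with 1 array left out, where leaving out D272fs arrays was added after seeing the data. The causes were not tested. Direction turned at Psmb9, with no background subtraction (0.0263), scale normalization (0.0168) and Cy3 alone (0.11), and between -0.10 and 0.11 with 1 array left out. It also turned at Rpl38 at position 4 alone (0.0131) and at the Atrip oligo with median centring (-0.14). No call was involved. The lone V235fs array at position 4 is assumed to vary like the controls.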
